A study of Drosophila melanogaster with 12 samples.

Results

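The genes described here make the eye pigments of Drosophila melanogaster and the pterins related to them. They are st, bw, cn, v, pr, ry, se, Pu, ma-l and Hn, and a probe set of the array was assigned to a gene only where the platform annotation gave that gene alone, by its symbol or a synonym. By this rule 9 of the 18952 probe sets on the array belonged to 8 of the 10 genes, out of 11982 genes with a probe set of their own, and bw had a pair of them. No probe set named v or Hn alone, so these genes are not analysed here.

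RNA came from eye imaginal discs of wandering larvae with the antennal part taken off, in 4 groups of 3 arrays and 12 arrays in all. The Runt group had the genotype w; ro-Gal4/UAS-Run and the Runt G163R group w; ro-Gal4/UAS-Run[G163R], so in both a ro-Gal4 line drove a Runt transgene, and no group of that experiment was without one. The sens mutant group was w; sensDF2RES/sensDF2RES; sensE1/sensE1, and the sens control group was w; sensDF2RES/+; sensE1/+, so controls carried 1 copy of each sens element. All 4 groups carried w, the mutation of the white transporter, and the genotypes do not say whether any transgene also carried a working white gene. Runt and Senseless are transcription factors of photoreceptor cells, and the first comparison sets wild-type Runt against its G163R form while the second sets the homozygous sens mutant against its heterozygous control.

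The fly eye owes its colour to brown ommochromes, made from tryptophan, and red pteridines (drosopterins), made from GTP. Both are stored in granules of the pigment cells, and ABC transporters of the white, scarlet and brown proteins carry pigment precursors into them. Pigment is laid down in the pupa, later than the discs measured here, but the pteridine route also gives tetrahydrobiopterin, a cofactor of the enzymes that hydroxylate aromatic amino acids. Because mutations in most of these genes change eye colour without killing the fly, alleles of st, bw, cn, v, pr, ry and se are widely used as markers on laboratory chromosomes. The members lie on several chromosome arms: v and ma-l on X, pr on 2L, bw, cn and Pu on 2R, st, se and Hn on 3L, and ry on 3R.

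All values are log2 expression values as deposited, and a level is given only for comparison of 1 probe set between arrays, not of different genes. Most probe sets of an array lay in a dense floor, with 54.2% to 54.9% of them under 3, and differences inside that floor are compressed. Within a group, arrays correlated at 0.993 to 0.998. The 9 eye disc and photoreceptor markers examined, among them ey, so, eya, dac, gl and elav, all had values above the floor in every group. The labels do not say whether the replicates are separate crosses, so each p-value covers the scatter among these 3 arrays a group, and that scatter could be technical.

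Of the 8 measured genes, 6 had a probe set that passed the filter on low values (over the 40th percentile of its array on at least 3 arrays) and were tested: st, bw, pr, ry, Pu and ma-l. The remaining genes, cn and se, did not pass, nor did one of the bw probe sets. The genes st, bw, pr, Pu and ma-l were over the filter on all 12 arrays. The gene ry was over it on 5 arrays, of which 3 were the sens mutant arrays, so its entry into the test depended on the group where it was high.

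**Figure D1:**
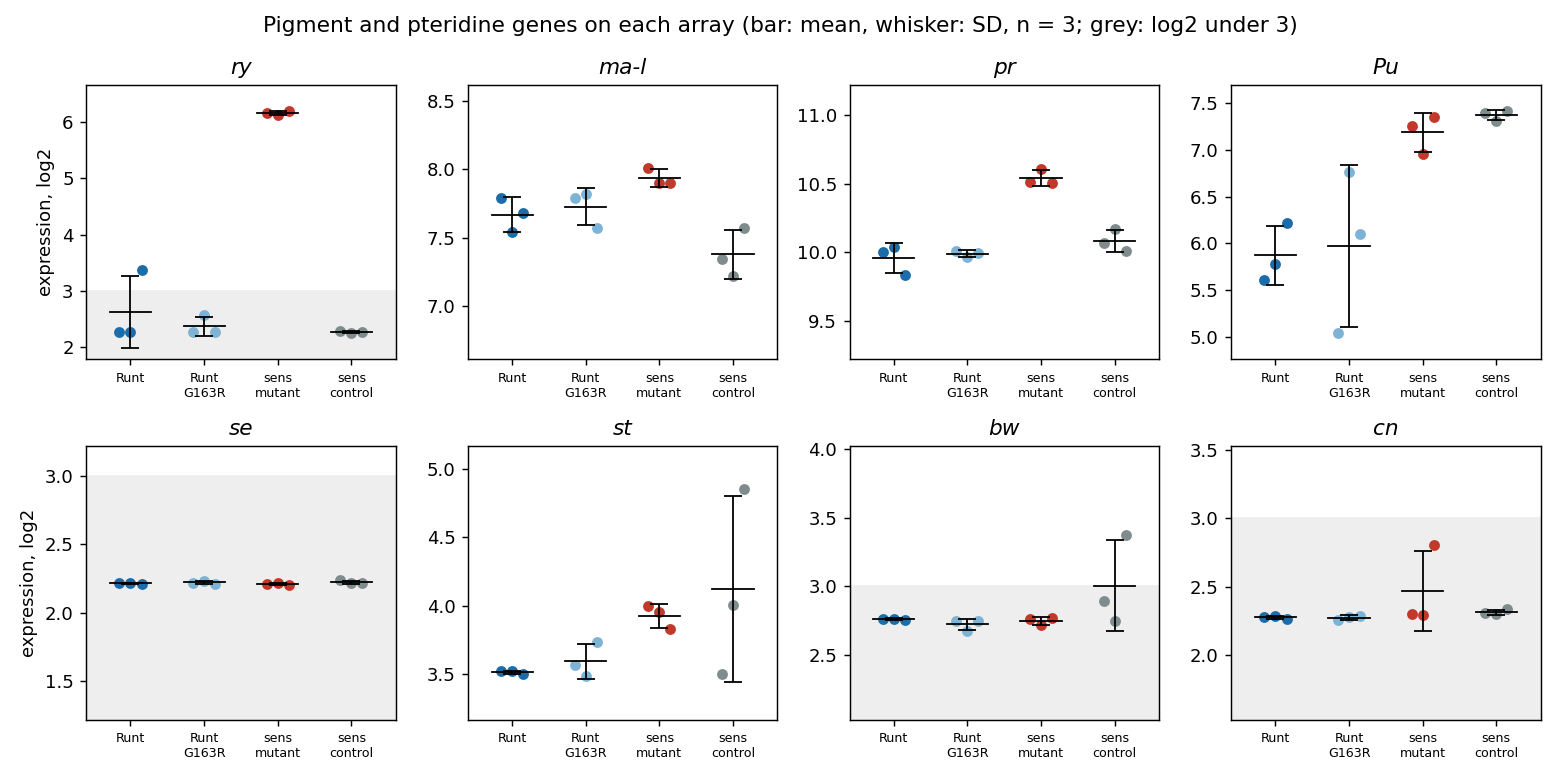
Log2 expression (vertical axes, each with its own range) of the 8 measured genes on each of the 12 arrays, with bw shown by its brighter probe set; points are arrays, bars are group means, whiskers are SD over 3 arrays, and the grey area marks log2 values under 3. The 3 sens mutant arrays stand at 6.13 to 6.19 for ry, where the other 9 arrays lie at or under 3.36, and Pu is lower on the arrays of the Runt experiment than on those of the sens experiment.

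The pteridine route starts with Pu, which encodes GTP cyclohydrolase, the enzyme that commits GTP to pterins. Its log2 values were 5.61, 5.78 and 6.22 in Runt, 5.05, 6.77 and 6.10 in Runt G163R, 7.25, 6.95 and 7.35 in the sens mutant, and 7.39, 7.31 and 7.41 in the sens control. The 6 arrays of the Runt experiment were therefore all lower than the 6 of the sens experiment, while the groups within each experiment overlapped. The spread was widest in Runt G163R, with a mean of 5.97 ± 0.865 (SD, n = 3), against 7.37 ± 0.0555 (SD, n = 3) in the sens control.

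The next step is made by pr, which encodes the pyruvoyl tetrahydropterin synthase. Its probe set read 10.005, 10.04 and 9.83 in Runt, 10.01, 9.96 and 9.99 in Runt G163R, 10.51, 10.61 and 10.51 in the sens mutant, and 10.07, 10.17 and 10.01 in the sens control. The 3 mutant arrays stood above the other 9. From there the route branches to drosopterins through se, a glutathione S-transferase of the omega class that makes the pyrimidodiazepine precursor. The se probe set stayed between 2.20 and 2.24 on all 12 arrays, inside the floor, so no difference between groups could be seen for it.

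The enzymes ry and ma-l act on pterins and purines. The gene ry encodes xanthine dehydrogenase, which makes uric acid from xanthine and isoxanthopterin from pterins, and whose loss gives rosy eyes. Its log2 values were 6.16, 6.13 and 6.19 in the sens mutant and 2.28, 2.25 and 2.25 in the sens control. In Runt they were 2.26, 2.26 and 3.36, and in Runt G163R 2.26, 2.56 and 2.27. Except for Runt replicate 3, the signal outside the mutant lay in the floor.

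The gene ma-l, named mal in RefSeq, encodes the sulfurase of the molybdenum cofactor, without which xanthine dehydrogenase and aldehyde oxidase are inactive. It read 7.79, 7.54 and 7.68 in Runt, 7.79, 7.81 and 7.57 in Runt G163R, 8.01, 7.90 and 7.90 in the sens mutant, and 7.35, 7.22 and 7.57 in the sens control. Mutant and control arrays did not overlap, the mutants lay above the other 9 arrays, and the Runt experiment, at 7.54 to 7.81, reached down to the highest control.

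On the ommochrome side, v and cn encode the tryptophan dioxygenase and the kynurenine hydroxylase. The cn probe set stood between 2.25 and 2.34 on 11 arrays and at 2.80 in sens mutant replicate 3, all in the floor. The transporters st and bw pair with white, st for ommochrome and bw for pteridine precursors. The st probe set read 3.521, 3.520 and 3.502 in Runt, 3.56, 3.49 and 3.73 in Runt G163R, 3.997, 3.96 and 3.83 in the sens mutant, and 3.504, 4.01 and 4.85 in the sens control. The control arrays of st spanned nearly its whole range, and sens control replicate 3 was the highest array.

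The brighter bw probe set also had its highest value, 3.37, in sens control replicate 3. The other bw values of that probe set were 2.76, 2.76 and 2.75 in Runt, 2.75, 2.67 and 2.74 in Runt G163R, 2.76, 2.71 and 2.76 in the sens mutant, and 2.89 and 2.75 in the remaining controls. The other bw probe set stayed between 2.22 and 2.43. Only 1 array thus exceeded 3 for bw, which leaves its groups without a usable level above the floor.

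Runt against Runt G163R asks which transcripts depend on the form of Runt expressed. No pigment gene was called in it: 0 of 6 tested members passed an adjusted p of 0.05 (limma, Benjamini-Hochberg over 11470 probe sets), with all 6 adjusted p-values at 1.00. Over the array 0.0436% of probe sets were called, 5 in number, and 729 (6.36%) had an unadjusted p under 0.05. The log2 differences were 0.26 (SE 0.245) for ry, -0.10 (SE 0.358) for Pu, -0.08 for st, -0.06 for ma-l, 0.04 for bw and -0.03 for pr. The 95% interval for Pu ran from -0.90 to 0.70, which leaves room for sizeable change, whereas that of pr ran from -0.17 to 0.11. The ry difference came from Runt replicate 3, since without that array it was -0.11.

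Sens mutant against sens control compares larvae homozygous and heterozygous for the sens elements. Loss of sens, the dose of sensDF2RES and alleles linked to either element cannot be told apart in it. Here ry, pr and ma-l were higher in the mutant, 3 of the 6 tested genes and 3 of the 8 measured, where 16.9% of all tested probe sets were called and 11.6% were called as higher. Mutant and control arrays did not overlap for these 3 genes, and 38.0% of all tested probe sets had groups without overlap. Of the 3, ry entered the test through the mutant arrays, so its place in these counts only describes where its signal was seen. The 4 tested members that encode enzymes all belong to the pterin and purine branch, so nothing can be said of the ommochrome enzymes among the members.

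The gene ry had a mean of 6.16 ± 0.0335 (SD, n = 3) in the mutant and 2.26 ± 0.0126 (SD, n = 3) in the control, a log2 difference of 3.90 (SE 0.245, 95% interval 3.35 to 4.45, adjusted p = 1.15e-05 in limma). All controls lay in the floor, and ry entered the test through the mutant arrays, so the fitted 14.9-fold rise is no exact ratio and the call is a description of where the signal was seen. The call held in all 21 alternatives, with differences of 3.73 to 3.92.

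The pterin synthase gene pr rose by 0.46 (SE 0.0640, adjusted p = 0.00138 in limma), or 1.38-fold, from 10.1 ± 0.0817 to 10.5 ± 0.0584 (SD, n = 3 each). The sulfurase gene ma-l rose by 0.56 (SE 0.115, adjusted p = 0.00975 in limma), or 1.47-fold, from 7.38 ± 0.177 to 7.93 ± 0.0640 (SD, n = 3 each). The call of pr held in 20 of 21 alternatives and that of ma-l in 19 of 21, and the losses came with other scalings of the arrays. With the median of the tested probe sets subtracted from each array, pr differed by 0.29 (adjusted p = 0.0509) and ma-l by 0.39 (adjusted p = 0.0567). After a second quantile normalization ma-l differed by 0.37 (adjusted p = 0.0518), while pr stayed called at 0.41 (adjusted p = 0.00546 in limma). Over all probe sets, subtracting the median took the middle difference from 0.03 to -0.14 and the share of calls that were higher from 68.7% to 29.7%, with 50.1% after the second quantile normalization.

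The remaining members did not pass in the sens comparison. The differences were -0.26 (SE 0.124, adjusted p = 0.189) for bw, -0.19 (SE 0.260, adjusted p = 0.634) for st and -0.18 (SE 0.358, adjusted p = 0.750) for Pu. Sens control replicate 3 decided the sign of st, which was 0.17 without it. The bw difference was called when the median was subtracted (-0.43, adjusted p = 0.0295), with its probe sets averaged (-0.17, adjusted p = 0.0467) and without sens control replicate 2 (-0.39, adjusted p = 0.0494). Of the deposited bw values only sens control replicate 3, at 3.37, exceeded 3. Over the 6 tested genes the median difference was 0.14, beside 0.03 over all probe sets.

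Genes listed as markers of other tissue moved in the same comparison. Whether their signal came from such tissue or from cells of the eye disc was not tested. Of 5 brain and neuroblast markers 4 were lower in mutants. The summed linear signal of all 5 was 740 to 783 on mutant arrays, 1658 to 1839 on control arrays and 772 to 1055 across the Runt experiment. The markers did not change evenly. Ddc differed most, with log2 means of 6.76 in mutants and 9.51 in controls, and dpn least, with 8.73 and 9.07. Of 5 antenna and leg disc markers 3 were lower, with sums of 507 to 636 on mutant arrays, 886 to 1258 on control arrays and 219 to 512 across the Runt experiment, and ap was under 3 on every array outside the controls. Their part in the changes of ry, pr and ma-l was not tested. Fat body and Malpighian tubule express several pigment genes. Of the Malpighian tubule markers 3 of 5 were measured, Irk3 and Lkr were under 3 on every array, and the sum was 27.3 to 43.3 over the 12 arrays. Of the fat body markers 3 of 6 were measured, with sums of 48.9 to 3234 on mutant arrays and 57.8 to 12846 on control arrays. In such bulk samples fewer cells of a type and less RNA per cell cannot be told apart.

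**Figure D2:**
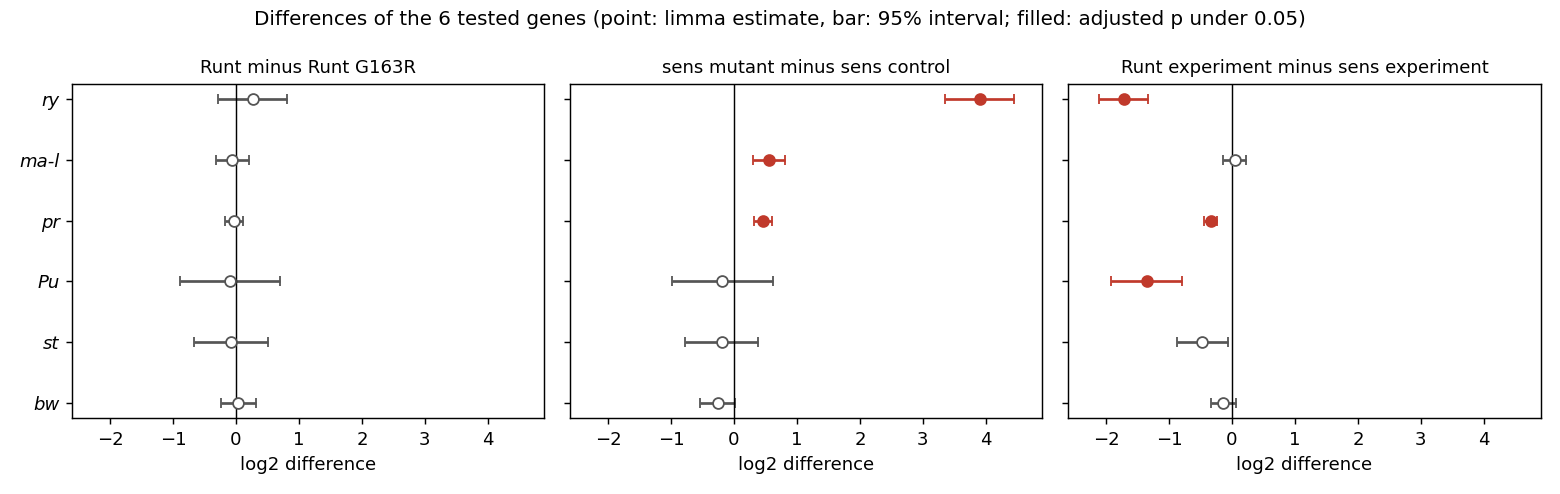
Log2 differences (horizontal axes) of the 6 tested genes in 3 comparisons, with limma estimates as points, 95% intervals as bars and filled red points for an adjusted p under 0.05. No gene is filled for Runt minus Runt G163R, ry, ma-l and pr are filled for sens mutant minus sens control, and ry, pr and Pu are filled, all lower in the Runt experiment, in the comparison of experiments.

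A test of the difference between these contrasts, Runt minus Runt G163R less sens mutant minus sens control, was made in the same fit. It called ry at -3.64 (SE 0.347, adjusted p = 0.000347), pr at -0.49 (SE 0.0906, adjusted p = 0.00988) and ma-l at -0.61 (SE 0.163, adjusted p = 0.0428) in limma, 3 of 6, with 10.1% of all probe sets called. As ry entered the test through the sens mutant arrays, its call only describes where its signal was seen. It held in all 20 alternatives, and the call of pr held in 19. That of ma-l held in only 7 of 20. It was lost, at adjusted p-values of 0.0677 to 0.0995, on leaving out Runt replicates 2 or 3, Runt G163R replicates 1 or 2, any of the sens mutant replicates or sens control replicates 1 or 2, with differences of -0.63 to -0.53. It was also lost with the median subtracted (-0.43, adjusted p = 0.153) and after the second quantile normalization (-0.40, adjusted p = 0.149). The replicate block (adjusted p = 0.0896) and the fit without a filter (adjusted p = 0.0590) ended it too. For Pu, st and bw no difference between contrasts was found.

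The Runt experiment was also set against the sens experiment, each as the mean of its pair of groups. Genetic background and any array batch cannot be told apart in this comparison. The genes Pu, ry and pr were lower in the Runt experiment, 3 of 6, where 44.5% of all probe sets were called and 18.9% of all were called as lower. With calls this frequent over the array, nothing is read from the count. Pu differed by -1.35 (SE 0.253, 95% interval -1.92 to -0.79, adjusted p = 0.00152 in limma), or 2.56-fold, and the call held in all 20 alternatives. It was the only tested member whose values did not overlap between the experiments, as 23.8% of all tested probe sets did not. The untested cn did not overlap either, at 2.25 to 2.29 and 2.30 to 2.80, all in the floor. The call for pr, at -0.34 (SE 0.0453, adjusted p = 0.000182), and that for ry, at -1.72 (SE 0.173, adjusted p = 2.71e-05), held in all 20 as well. Both averages mix the mutant with its control, and the control values of ry were at the level of the Runt arrays, so this ry difference came from the mutant arrays. As ry also passed the filter through those arrays, its call and the alternatives only describe where its signal was seen.

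The gene ma-l differed by 0.04 between experiments, st by -0.47 (SE 0.184, adjusted p = 0.0624) and bw by -0.14. With the median subtracted, st at -0.56 (adjusted p = 0.0110) and bw at -0.22 (adjusted p = 0.0478) were called too. The call of st also depended on single arrays, at -0.62 (adjusted p = 0.00505) without sens control replicate 1 and -0.29 (adjusted p = 0.0316) without sens control replicate 3. All 7 haemocyte markers were higher in the Runt experiment, with sums of 1062 to 2784 there and 81.1 to 353 in the sens experiment, where Nplp2 was under 3 on all arrays. Of the 9 eye disc and photoreceptor markers 5 were higher there and 1 lower. Of the 5 antenna and leg disc markers 4 were lower, and of the 5 brain and neuroblast markers 2 were higher and 3 lower. No tested fat body or Malpighian tubule marker was called. Over all probe sets 25.5% were called as higher and 18.9% as lower. The part of haemocytes or of these other cells in the Pu difference was not tested.

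Other genes of the same pathways were counted by list. In the pteridine and tetrahydrobiopterin list all 5 genes with a named probe set were tested, and 2 rose in the sens mutant, where 11.6% of all probe sets were called as higher. Under both other scalings 1 of the 5 was called. Dhpr, the dihydropteridine reductase that regenerates tetrahydrobiopterin, read 10.2, 10.2 and 9.95 in mutants and 9.45, 9.25 and 9.33 in controls. It rose by 0.75 (SE 0.0824, adjusted p = 0.000346 in limma), and the Runt experiment, at 9.26 to 9.52, lay with the controls. Its call held in all 21 alternatives, and its difference between contrasts was -0.83 (adjusted p = 0.00293).

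Sptr, the sepiapterin reductase that completes tetrahydrobiopterin, read 9.07, 9.14 and 8.95 in mutants and 8.43, 8.58 and 8.41 in controls. It rose by 0.58 (SE 0.132, adjusted p = 0.0152), a call lost with the median subtracted (0.41, adjusted p = 0.0763), after the second quantile normalization (0.46, adjusted p = 0.0681) and without sens mutant replicate 2 (0.54, adjusted p = 0.0517). The genes cl at 0.13, which acts with se in drosopterin synthesis, DhpD at 0.14, a dihydropterin deaminase, and Pcd at -0.03, a carbinolamine dehydratase, did not pass. The list's median was 0.14, beside 0.03 over all probe sets, and it was 0.07 after the second quantile normalization and -0.03 with the median subtracted.

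The omega class glutathione S-transferases GstO1, GstO2 and GstO3 lie beside se on 3L. In the sens mutant 2 of the 3 rose, where 11.6% of all probe sets were called as higher, but with the median subtracted 1 was called higher, GstO1, and 1 lower, GstO3. GstO1 read 8.67, 8.58 and 8.80 in mutants and 7.62, 8.09 and 8.26 in controls, a difference of 0.69 (SE 0.152, adjusted p = 0.0129), lost only in the fit of the 6 arrays of that experiment (adjusted p = 0.0569). GstO2 differed by 0.29 (adjusted p = 0.0307), a call that failed in 8 of 21 alternatives, among them both other scalings and the omission of sens mutant replicates 1 or 2 or of any sens control replicate. GstO3 differed by -0.09 (adjusted p = 0.267) on the values as deposited. The level of se itself could not be followed.

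In the ommochrome list 3 of 4 genes with a probe set were tested and none passed in any comparison. In the sens mutant kar, a transporter-like gene of the karmoisin mutant, differed by 0.38 (adjusted p = 0.236), the kynurenine formamidase gene KFase by 0.26 (adjusted p = 0.178) and the peroxidase-like gene cd by 0.09 (adjusted p = 0.842). Of the molybdenum cofactor and oxidase list 2 of 5 genes with a probe set were tested. Mocs1, which begins cofactor synthesis, differed by 0.22 (adjusted p = 0.577) in the sens mutant, and was lower in the Runt experiment, by a difference of -1.01 (adjusted p = 0.000992). AOX3, an aldehyde oxidase gene, differed by -0.35 (adjusted p = 0.518).

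The purine list leads to GTP and xanthine, the starting points of Pu and ry. None of its 8 tested genes passed in the sens comparison, with the smallest adjusted p at 0.0702 for Pfas (0.22). Between experiments 6 of 8 were higher in the Runt experiment, where 25.5% of all probe sets were called as higher. They were Paics at 0.47, Adss at 0.39, Prat at 0.33, Pfas at 0.32, ras at 0.31 and bur at 0.22. The calls of ras (0.23, adjusted p = 0.0637) and bur (0.14, adjusted p = 0.0935) were lost with the median subtracted.

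Pigment granules are lysosome-related organelles, and many eye colour genes encode the machinery that builds them. Of 18 tested granule genes 3 rose and none fell in the sens mutant, a count near the 11.6% of all probe sets called as higher. They were Rab32, a small GTPase, at 0.46 (adjusted p = 0.00826), cm, a subunit of the adaptor complex AP-3, at 0.46 (adjusted p = 0.0358) and Dysb, of the complex BLOC-1, at 0.60 (adjusted p = 0.0411). With the median subtracted none of these 3 passed, at 0.29, 0.29 and 0.43. The calls of cm and Dysb held in only 8 of 21 and 5 of 20 alternatives. Both calls ended on leaving out sens mutant replicates 1 or 3, sens control replicates 1 or 2, Runt replicates 1 or 2 or Runt G163R replicates 2 or 3, and that of Dysb also without sens control replicate 3 or Runt G163R replicate 1.

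Between experiments 7 granule genes were lower and 1 higher in the Runt experiment, where 18.9% of all probe sets were called as lower and 25.5% as higher. The lower ones were Rab32 at -0.68, g at -0.61, lt at -0.59, Dysb at -0.56, Blos1 at -0.45, rb at -0.26 and car at -0.24, and the higher one was cm at 0.46. The products of g, rb and cm are subunits of 1 complex, AP-3, and differed in sign here. The call of car held in 10 of 20 alternatives and ended without Runt replicates 2 or 3, Runt G163R replicates 1 or 2, sens mutant replicates 1 or 3 or any sens control replicate.

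The ABC transporters of the G family related to white, st and bw were counted apart. In the sens mutant 2 of 11 tested fell, where 5.3% of all probe sets were called as lower. They were CG11069, with a difference of -0.57 (SE 0.0886, adjusted p = 0.00241), and CG31689, whose level is in the floor, with -0.13 (adjusted p = 0.0220). The CG11069 call held in all 21 alternatives, and its values were 9.88, 9.77 and 9.87 in mutants and 10.3, 10.4 and 10.6 in controls. The CG31689 call held in 12 of 19 alternatives. It was lost without any 1 of the sens mutant replicates or sens control replicate 2, after the second quantile normalization (-0.09, adjusted p = 0.152), with the replicate block and in the 6 arrays of the experiment alone.

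Between experiments 7 of these 11 transporters were lower in the Runt experiment and none higher, where 18.9% of all probe sets were called as lower. CG17646 differed by -2.26, the ecdysone-inducible E23 by -1.45, Atet by -1.13, CG32091 by -1.01, CG5853 by -0.85, CG11069 by -0.50 and CG31121 by -0.49. CG17646 stood at 4.46 to 5.06 in the Runt experiment and 6.45 to 7.45 in the sens experiment, without overlap. The list's median was -0.50, beside 0.01 over all probe sets. No gene of any of these lists was called for Runt against Runt G163R.

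**Figure D3:**
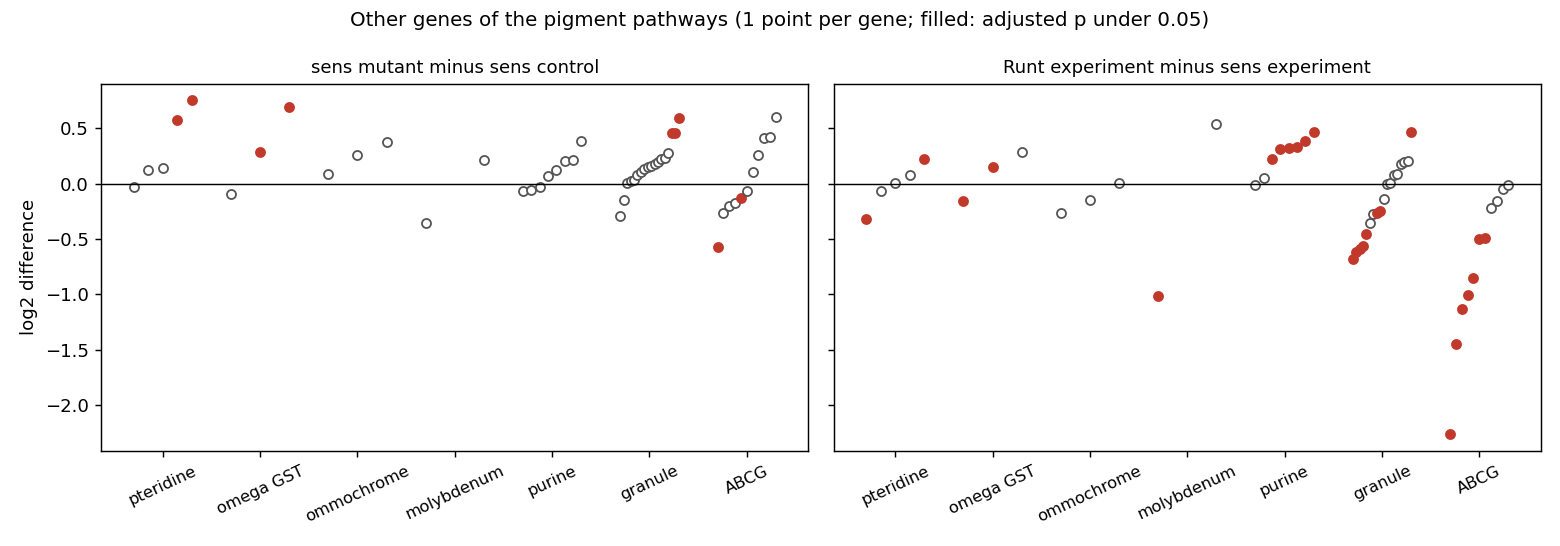
Log2 differences (vertical axis, shared) of the tested genes of 7 pathway lists, 1 point per gene, for sens mutant minus sens control and for Runt experiment minus sens experiment, filled where the adjusted p was under 0.05. Dhpr at 0.75 is the highest filled point on the left side, and ABC transporters of the G family reach -2.26 on the right side.

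As ry is also a marker of chromosome 3R, its neighbours in the RefSeq gene order were examined in the sens comparison. Of the 20 genes within 10 places of ry, 13 had a named probe set and 11 were tested, and 5 (45.5%) were called, all higher in the mutant, beside 16.9% called and 11.6% called as higher over all probe sets. At least 2-fold differences were found for 4 of them, where 4.18% of all tested probe sets met that rule. Widening the window to 50 genes on each side, a choice made after seeing the data, gave 42 tested genes with 11 (26.2%) called, all higher, and still 4 with at least 2-fold differences. The large changes around ry thus lay within 7 places of it. Such counts were not particular to ry. In the wider window 6 of 48 tested genes around st, 5 of 60 around v and 5 of 47 around Hn were called at 2-fold or more. Around the remaining members there were 0 to 3. No neighbour of ry was called for Runt against Runt G163R.

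The gene next to ry, l(3)87Df, read 9.90, 9.81 and 9.98 in mutants and 7.21, 7.39 and 7.14 in controls. It rose by 2.65 (adjusted p = 3.59e-07 in limma), and the Runt experiment, at 7.15 to 7.77, lay near the controls, as for ry. The mutant arrays were the ones set apart.

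Hsc70-2, a heat shock cognate gene 5 places from ry, read 7.83, 7.99 and 7.51 in mutants and 2.62, 2.50 and 2.51 in controls, a difference of 5.24 (adjusted p = 3.30e-07). Here the Runt experiment, at 7.17 to 7.86, lay with the mutants, and the controls alone were in the floor. CG31157, the next gene, read 3.88, 3.37 and 4.38 in mutants and 2.40, 2.38 and 2.36 in controls, with 4.79 to 5.80 across the Runt experiment, and differed by 1.497 (adjusted p = 0.00483). The controls were again the only arrays in the floor, so these genes did not follow the pattern of ry.

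CG7966 differed by 1.26 (adjusted p = 0.00230), with group means of 8.18 in mutants, 6.93 in controls, 5.57 in Runt and 5.29 in Runt G163R. CG8031, 6 places away on the other side, differed by 0.39 (adjusted p = 0.0183), and its call was lost without sens mutant replicate 2 or sens control replicate 1, with the replicate block and with the median subtracted. Between ry and Hsc70-2, CG11668 and snk lay in the floor, and CG11670 was not called. The other 4 calls held in all 21 alternatives. The changed genes near ry therefore showed 3 patterns over the 4 groups, with the mutants apart, with the controls apart, or with both apart from the Runt experiment.

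**Figure D4:**
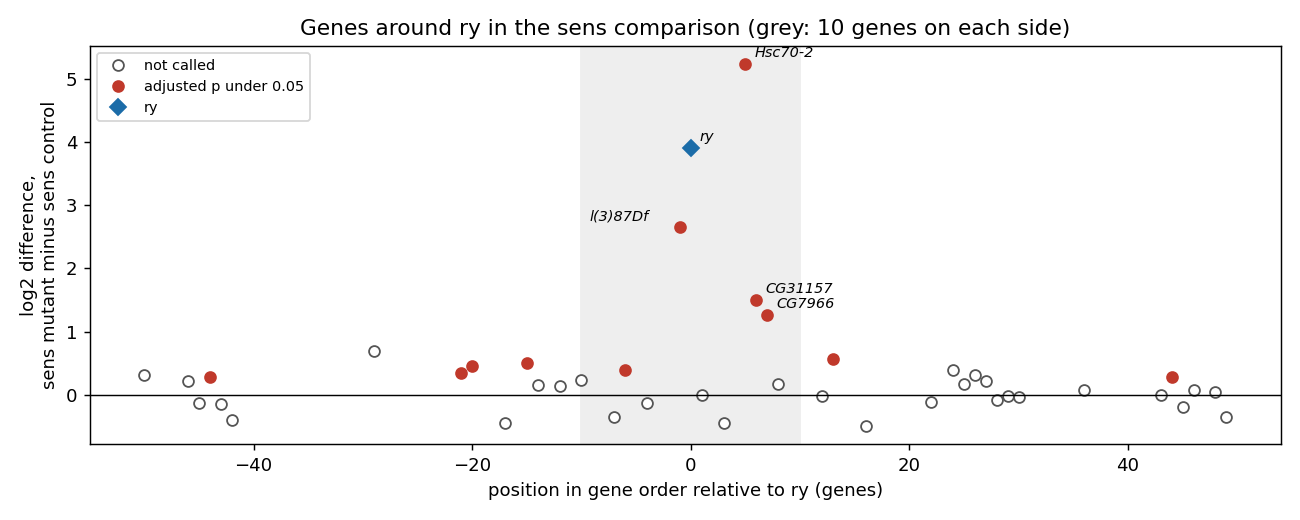
Log2 difference, sens mutant minus sens control (vertical axis), of the tested genes around ry by position in the RefSeq gene order (horizontal axis, in genes), with filled circles for an adjusted p under 0.05 and the grey area for 10 genes on each side. The differences of ry, Hsc70-2, l(3)87Df, CG31157 and CG7966, from 1.26 to 5.24, stand above those of all other tested genes within 50 places.

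**Figure D5:**
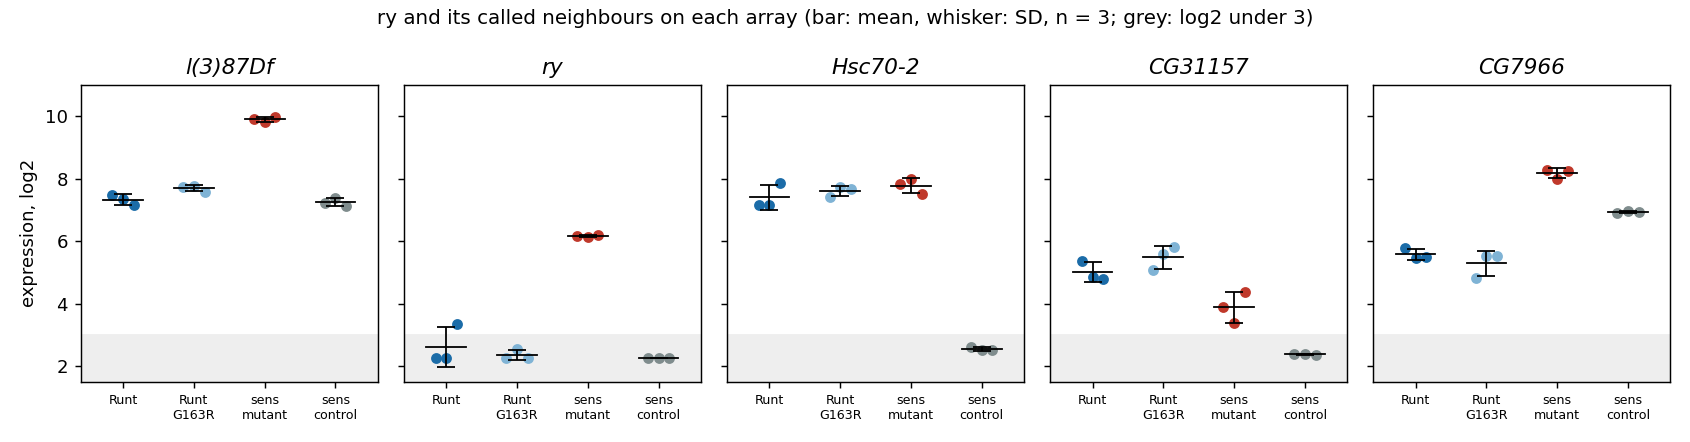
Log2 expression (vertical axis, shared) of ry and the 4 neighbours with at least 2-fold differences on each of the 12 arrays; points are arrays, bars are means, whiskers are SD over 3 arrays, and the grey area marks log2 values under 3. The mutant arrays stand apart for l(3)87Df and ry, and the control arrays stand apart, in the floor, for Hsc70-2 and CG31157. For CG31157 the mutant arrays lie between the controls and the Runt experiment.

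The genes whose profile over the 12 arrays was most like that of a member were found among the 3119 genes that ranged over at least 1 log2 unit, by Pearson correlation. Such values are descriptions, since the arrays share groups and one group can set them. For ry they were CG32055 on 3L (0.983), Mgstl on X (0.970) and wrapper on 2R (0.962). Mgstl, a microsomal glutathione S-transferase, read 11.3 on each mutant array and 10.2 to 10.5 on the others, and wrapper, a glial surface protein gene, 4.75 to 5.15 against 3.56 to 3.89. In each case the 3 mutant arrays stood above the other 9.

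For Pu the nearest were jbug (0.969), esn (0.968) and ds (0.965), the last an atypical cadherin of planar polarity. All 3 were lower on the arrays of the Runt experiment, and all 3 shared with Pu the low value of Runt G163R replicate 1, for jbug 9.72 against 10.1 to 11.2 elsewhere. For st they were Met (0.959), CG12164 (0.947) and alphaTub84D (0.929). Each had its highest array in sens control replicate 3, at 6.38, 3.84 and 7.20, as st did. The genes bw, cn, pr, se and ma-l ranged over less than 1 log2 unit and were not searched.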

How the data were processed

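The log2 expression values of 12 Affymetrix arrays were used as deposited. How the authors corrected and normalized them is not given in the sources used here. Per the submitters' processing notes the tools were MAS5, GCRMA and affy, without versions or roles. Each labelling started from 6 ug of total RNA, per the labels' protocols.

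The table holds 18952 probe sets, of which 13647 name 1 gene in the platform annotation, 402 several and 4720 none, besides 183 controls. RefSeq (Release 6 plus ISO1 MT) gave current symbols, chromosome arms and gene order. The 11470 probe sets over the 40th percentile of their array on at least 3 of 12 arrays were fitted with limma 3.58.1 in R 4.3.3: 4 group means over all arrays, eBayes with an intensity trend, two-sided tests, Benjamini-Hochberg adjustment over all kept probe sets, and a call at an adjusted p under 0.05. The number of arrays limits the precision.

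A gene is read by its probe set with the highest mean. The genes, the pathway and marker lists and the tests were chosen with earlier results of these data known. By rule the text names all members, called genes of each list and otherwise up to 4 with the smallest p, called neighbours with at least 2-fold differences, and for each member ranging over at least 1 log2 unit the 3 genes most like it; further neighbours of ry were named after their values were seen. The filter, scaling, variance model, weights, replicate block, probe set summary, arrays fitted and each array were varied.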

Additional observations from a re-analysis of the deposited data

Results flagged for a closer look

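Of the members, 3 stand out because the size of their difference was tested between the experiments and differed, by the contrast of Runt minus Runt G163R less sens mutant minus sens control in limma. For ry this difference between contrasts was -3.64 (adjusted p = 0.000347), as ry was at 6.13 to 6.19 on the 3 sens mutant arrays and at most 3.36 elsewhere. Nearly all other ry values lay in the floor, and ry passed the filter through the mutant arrays, so the size of this difference is no measured ratio. For pr it was -0.49 (adjusted p = 0.00988), and its call was lost with the median subtracted (-0.31, adjusted p = 0.159). For ma-l it was -0.61 (adjusted p = 0.0428), and 13 of 20 alternatives ended that call. Over the array 10.1% of probe sets were called in this test.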

How the results depend on the processing

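Of 483 member differences recomputed, 443 kept their direction and their side of the threshold, 8 passed it, 17 lost it and 15, all of them uncalled, changed sign; the cause was not tested. For Runt minus Runt G163R, leaving out 1 array gave -0.0715 to 0.0327 for pr, reversed without Runt replicate 3, -0.106 to 0.448 for ry, reversed without the same array, -0.559 to 0.299 for Pu, reversed at 0.0310 without Runt replicate 1 and 0.299 without Runt G163R replicate 2, and -0.133 to 0.00840 for ma-l, reversed without Runt replicate 2. Array weights turned pr to 0.0365 and ry to -0.112. Leaving out 1 array gave -0.502 to 0.171 for st in the sens comparison and -0.250 to 0.423 in the difference between contrasts, both reversed without sens control replicate 3. In that difference Pu gave -0.620 with array weights and -0.374 to 0.484 on leaving out 1 array, reversed at -0.0872 without Runt replicate 3, -0.374 without Runt G163R replicate 1 and -0.0296 without sens mutant replicate 2. Between experiments ma-l gave -0.0190 after the second quantile normalization and -0.0455 with the median subtracted.

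The members called numbered 0 in every alternative for Runt minus Runt G163R. Leaving out 1 array gave 3 to 4 in the sens comparison, 2 to 3 in the difference between contrasts (1 with the median subtracted) and 3 to 4 between experiments (5 with the median subtracted). For all probe sets, the 5 calls for Runt minus Runt G163R became 0 with a 60th percentile filter, 466 with array weights, 1 with the replicate block, 3 with probe sets averaged and 1 in the 6 arrays alone, and 4 to 119 on leaving out 1 array, the most without Runt replicate 3. The 1940 sens calls became 1215 to 2006, the fewest without sens mutant replicate 1. The 1157 calls of the difference between contrasts became 2669 with array weights and 697 to 1318 on leaving out 1 array, and the 5101 between experiments 4602 to 5000. With the median subtracted, the share of calls that were higher moved from 33.2% to 74.0% in the difference between contrasts (54.3% after the second quantile normalization) and from 57.4% to 44.2% between experiments. Same-numbered arrays did not pair, with correlations of their deviations of 0.256, -0.121 and 0.0646 in the Runt experiment and -0.420, -0.0674 and 0.0756 in the sens experiment. With the replicate block the members called numbered 0, 3, 2 and 3 in the 4 comparisons, and the sens calls 1564. Signal over background limits se, cn and bw, and ry outside the sens mutant.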

Other observations

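The neighbours of the other members were counted in the sens comparison in the same way, within 10 genes on each side. Over all tested probe sets 16.9% were called and 4.18% were called at 2-fold or more. Around Hn on 3L, 5 of 13 tested genes (38.5%) were called and 4 at 2-fold or more: Clk at 1.96, Pdp1 at 1.71, CG32369 at 1.67 and Ank2 at -1.53. Clk and Pdp1 encode transcription factors of the circadian clock. Around se 6 of 18 (33.3%) were called, with Cbl, a ubiquitin ligase gene, at 1.93. Around pr 4 of 12 (33.3%) were called, all higher and none at 2-fold. Around ma-l 2 of 9 were called, with CG15456 at 1.67, and around Pu 2 of 10, none at 2-fold. Around v and cn none of 10 and 11 tested genes passed in limma, and around st and bw 1 of 10 each.

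Only ry and CG32055, on 3L, of 8224 genes were under 3.5 on all 9 arrays outside the sens mutant and over 5 on each mutant array, a pattern chosen after the values were seen. CG32055 read 9.11 to 9.32 in mutants and at most 2.20 elsewhere. Between experiments, Nop17l and PolZ1, 8 and 7 genes from cn, were higher in the Runt experiment by 3.22 and 1.33, while cn itself lay in the floor.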
